A study of Homo sapiens with 4 samples.

Results

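The 34 genes described here make, regulate and move cholesterol, or make and desaturate the fatty acids that share its control. They were chosen by name from the 19390 gene IDs listed in any of 4 RNA-seq libraries of H1, an established human embryonic stem cell line. The list goes by gene name, but it was drawn up with earlier results of these data known. The cells were wild type and went through a stepwise differentiation toward blood in a custom mTeSR1 medium, with 1 library per day. The groups are undifferentiated cells on day 0, cells on day 2 after 2 days with activin A at 40 ng/ml and BMP4 at 50 ng/ml, and cells on days 3 and 4, which then received VEGF at 40 ng/ml and bFGF at 50 ng/ml. Medium factors, time in culture and day cannot be told apart in this design. Because each day is 1 library, no difference has a replicate check and no p-value is given. The 95% intervals in parentheses are exact and cover counting error only. The labels do not say how many cultures went into a library.

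Cholesterol is built from acetyl-CoA through mevalonate, farnesyl pyrophosphate, squalene and lanosterol. Its genes are switched by the SREBP transcription factors, which lie in the endoplasmic reticulum bound to SCAP. When sterols are low, SCAP carries SREBP to the Golgi, where proteases free the part that enters the nucleus. When sterols are high, the INSIG proteins hold SCAP back. SREBP acts at sterol regulatory elements, usually beside binding sites of NF-Y, which reads the CCAAT box, and of SP1, which reads the GC box. Cholesterol that enters a cell in lipoproteins is released in the lysosome, and surplus leaves through ABC transporters.

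Of the 34 members, 18 are enzymes of cholesterol synthesis: 7 of the mevalonate steps, 3 from squalene to lanosterol and 8 after lanosterol. A further 5 are the SREBP regulators, 3 move cholesterol within cells, 2 export it and 6 belong to fatty acid synthesis and desaturation. Uptake is represented by NPC1 and NPC2, which act in the lysosome. All 34 were listed in each of the 4 libraries, and all reached 1 CPM (read counts scaled to library size) on at least 1 day.

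The RefSeq table of promoters (GRCh38.p14) held 29 of the 34 members, all but FDFT1, SQLE, ACAT2, ABCG1 and FASN. Each promoter runs from 250 bases before to 50 bases after the gene's start. The core of the sterol regulatory element, searched as CACCCCAC on both strands, was in 2 of the 29, which is 6.90%, against 2.72% of all 27305 promoters. Those 2 belonged to ABCA1, at position -228 from the start, and SREBF2, at position -132. The CCAAT box, CCAAT on either strand, was in 18 of 29, or 62.1%, against 35.7% of all promoters and 36.5% of the 12506 promoters of genes with at least 1 CPM. The GC box, GGGCGG on either strand, was in 27 of 29, or 93.1%, against 44.6% and 67.4% of these 2 sets. Of the 15 promoters of cholesterol synthesis enzymes, 12 (80%) had a CCAAT box and 9 (60%) had at least 2, whereas 13.2% of the promoters of genes with at least 1 CPM had at least 2. Among the 14 promoters of the other members, 6 (42.9%) had a CCAAT box, nearer the 36.5%, and 4 (28.6%) had at least 2. Matches of different motifs overlapped at 0 places in the members. These matches describe the letters in the window and do not show binding.

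The 250 bases before the start are printed for the genes with the most CCAAT boxes, MVK (chr12:109573544-109573793, plus strand), NSDHL (chrX:152830813-152831062, plus strand) and MSMO1 (chr4:165327419-165327668, plus strand), with 5, 5 and 4 of them. They are followed by SREBF2 (chr22:41832855-41833104, plus strand), which has an element core beside a CCAAT box, and by SCAP (chr3:47475942-47476191, minus strand), a regulator with neither. Capitals mark the CCAAT box on either strand (CCAAT or ATTGG) and the element core. Each sequence reads 5′ to 3′ on the gene's own strand.
MVK: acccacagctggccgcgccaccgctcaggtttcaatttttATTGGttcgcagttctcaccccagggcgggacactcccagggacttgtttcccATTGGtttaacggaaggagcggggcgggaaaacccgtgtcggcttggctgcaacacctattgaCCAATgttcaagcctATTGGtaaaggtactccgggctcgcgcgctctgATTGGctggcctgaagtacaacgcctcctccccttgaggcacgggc
NSDHL: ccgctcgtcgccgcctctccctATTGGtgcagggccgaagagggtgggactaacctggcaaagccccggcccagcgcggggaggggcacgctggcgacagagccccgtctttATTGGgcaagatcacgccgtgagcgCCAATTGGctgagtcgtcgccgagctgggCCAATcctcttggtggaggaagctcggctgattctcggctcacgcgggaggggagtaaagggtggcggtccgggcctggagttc
MSMO1: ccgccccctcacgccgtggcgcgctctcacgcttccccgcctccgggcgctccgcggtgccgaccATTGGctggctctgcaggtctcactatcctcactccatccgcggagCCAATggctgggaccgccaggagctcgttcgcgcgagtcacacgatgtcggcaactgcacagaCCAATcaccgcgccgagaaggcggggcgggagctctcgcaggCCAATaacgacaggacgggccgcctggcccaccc
SREBF2: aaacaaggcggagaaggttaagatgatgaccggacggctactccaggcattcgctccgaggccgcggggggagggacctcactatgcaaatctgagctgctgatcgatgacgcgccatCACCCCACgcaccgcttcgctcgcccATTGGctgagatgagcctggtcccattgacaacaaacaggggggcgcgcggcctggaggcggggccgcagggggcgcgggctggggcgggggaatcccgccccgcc
SCAP: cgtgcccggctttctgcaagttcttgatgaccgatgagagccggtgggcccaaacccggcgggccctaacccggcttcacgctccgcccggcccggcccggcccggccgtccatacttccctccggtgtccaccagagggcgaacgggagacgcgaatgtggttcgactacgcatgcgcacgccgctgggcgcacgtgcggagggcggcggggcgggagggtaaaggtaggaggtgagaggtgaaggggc
In NSDHL a pair of CCAAT boxes on opposite strands overlap. The 5 boxes of MVK lie at positions -210, -157, -94, -79 and -46.

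The libraries held 5.04, 5.2, 5.2 and 5.49 M expected counts on days 0, 2, 3 and 4, so that 1 read was worth 0.182 to 0.196 CPM. The members took 1.12, 1.25, 1.35 and 1.31% of all counts on those days. Lists of cell type markers were read in the same libraries. Over all 5 markers of the undifferentiated state the summed level was 4825, 2020, 1958 and 1619 CPM in day order, over 4 markers of the primitive streak 0.97, 492, 198 and 45.3 CPM, and over 5 haemato-endothelial markers 213, 386, 989.9 and 1299 CPM. The 5 endoderm markers summed to 4.65, 100.4, 126 and 176 CPM, with TTR at 0 counts before day 4 and APOA1 at 0 on day 0, which allows up to 3 counts or 0.588 CPM. The 3 macrophage markers summed to 6.47 to 10 CPM. The 3 hepatocyte markers summed to 4.46, 3.92, 14.1 and 42.7 CPM in day order, higher on days 3 and 4, as FGB was. Blood cell markers summed to 1.35 to 8.36 CPM over 4 genes, with GATA1 at 0 counts before day 4. The neural list gave PAX6 alone, at 1.27 to 4.12 CPM. These sums moved with day, their part in the differences below was not tested, and fewer cells of a type and less RNA per cell cannot be told apart in bulk RNA.

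**Figure D1:**
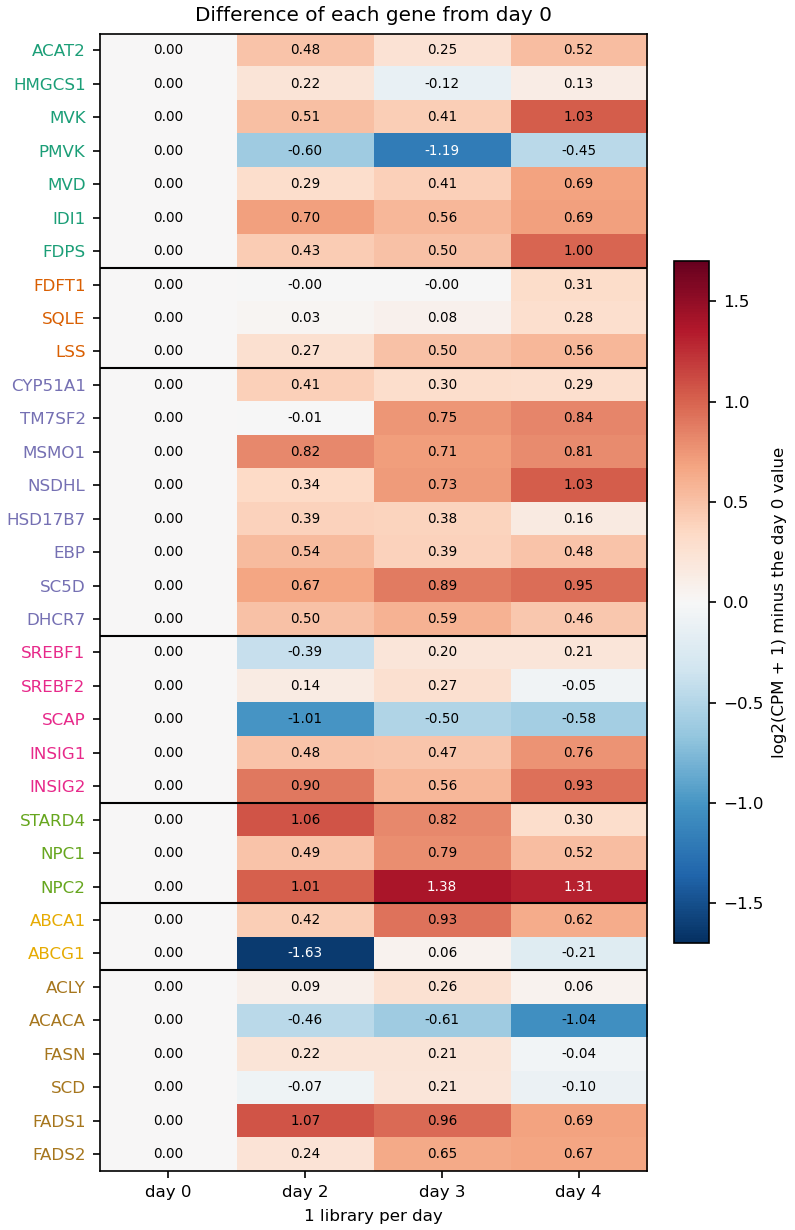
Each cell gives a gene's log2(CPM + 1) minus its own value on day 0, for the 34 members (rows, coloured and ruled off by role) on each day (columns, 1 library per day). Red is higher and blue lower than day 0, and most rows of the cholesterol synthesis enzymes (top 3 blocks) are red, while PMVK is blue on days 2, 3 and 4 and HMGCS1 is slightly blue on day 3 at -0.12.

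In day order the 7 genes of the mevalonate steps summed to 1673, 2138, 1851 and 2272 CPM, with a dip on day 3. Of the 7, 4 were at least 1.5-fold higher on day 4 than on day 0 on the log2(CPM + 1) scale, against 25.6% of all genes that reached 1 CPM on either day, and none was 1.5-fold lower, against 22.1%. These are the enzymes that turn acetyl-CoA into farnesyl pyrophosphate. MVK (gene ID 4598), which phosphorylates mevalonate, measured 20.9, 30.2, 28.2 and 43.8 CPM on days 0, 2, 3 and 4. It was highest on day 4, where it was 2.09-fold (1.66 to 2.65) higher than on day 0, and days 2 and 3 did not differ beyond counting error. FDPS (gene ID 2224), which makes farnesyl pyrophosphate, measured 224, 302, 316 and 447 CPM. On day 4 it was 2.0-fold (1.86 to 2.15) higher than on day 0, just short of the 2-fold rule, and 1.42-fold (1.33 to 1.51) higher than on day 3.

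IDI1 (gene ID 3422), which interconverts the isoprenoid building units, measured 178, 290.1, 263 and 288 CPM. Its level was 1.63-fold (1.5 to 1.77) higher on day 2 than on day 0, and day 4 did not differ from day 2 beyond counting error. PMVK (gene ID 10654), the kinase after MVK, measured 11.8, 7.45, 4.64 and 8.36 CPM and was the only cholesterol enzyme with its highest value on day 0. It was 1.59-fold (1.04 to 2.45) lower on day 2 than on day 0, and its day 4 value was within counting error of day 0. At 24 to 61 counts it was also the mevalonate gene with the fewest reads. MVD, the decarboxylase of the route, was 1.62-fold (1.44 to 1.83) higher on day 4 than on day 0. The entry genes ACAT2 and HMGCS1 moved less, by 1.43-fold (1.34 to 1.54) and 1.09-fold (1.05 to 1.14).

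The mevalonate dip on day 3 came largely from the abundant HMGCS1, at 829 CPM on day 3 against 1054 CPM on day 2, 1.27-fold (1.22 to 1.32) lower. ACAT2, IDI1 and, further down the pathway, MSMO1 had the same order of steps as HMGCS1: higher on day 2 than on day 0, lower on day 3 than on day 2 and higher on day 4 than on day 3, each beyond counting error. No other member had that order. The share of all genes with that order was not computed, so this count does not set these genes apart.

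The 3 genes from squalene to lanosterol summed to 1023, 1067, 1118 and 1301 CPM in day order, FDFT1 and SQLE with a late step and LSS with earlier ones. None of the 3 reached 1.5-fold between day 4 and day 0, and over all genes 25.6% were that much higher and 22.1% lower, so 0 of 3 does not set them apart. FDFT1 (gene ID 2222), squalene synthase, measured 440.4, 439, 439 and 547 CPM on days 0, 2, 3 and 4, so days 0, 2 and 3 lay within counting error of each other, and day 4 was 1.25-fold (1.18 to 1.32) higher than day 3. SQLE (gene ID 6713), which oxidises squalene, measured 405, 413, 428 and 492 CPM, and it was 1.15-fold (1.09 to 1.22) higher on day 4 than on day 3. Like FDFT1, it was within counting error of the day sampled before on days 2 and 3. LSS (gene ID 4047), which closes the rings to give lanosterol, measured 178, 214, 252 and 263 CPM, with the larger steps earlier: 1.21-fold (1.1 to 1.32) higher on day 2 than on day 0 and 1.17-fold (1.08 to 1.27) higher on day 3 than on day 2.

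After lanosterol the sum of the 8 genes was 1227, 1807, 1867 and 1912 CPM in day order, so most of the difference lay between days 0 and 2. By day 4, 4 of the 8 were at least 1.5-fold higher than on day 0, against 25.6% of all genes, and none was 1.5-fold lower, against 22.1%. NSDHL (gene ID 50814), which acts in removal of methyl groups from the sterol ring, measured 48.3, 61.6, 80.6 and 99.96 CPM on days 0, 2, 3 and 4. It was the only member of the 34 that was higher at each step beyond counting error, reaching 2.07-fold (1.78 to 2.41) higher on day 4 than on day 0. SC5D (gene ID 6309), a sterol desaturase near the end of the pathway, measured 296, 472, 549 and 574 CPM. Its day 4 value was 1.94-fold (1.82 to 2.06) higher than day 0, and its day 2 value was 1.59-fold (1.49 to 1.7) higher than day 0.

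MSMO1 (gene ID 6307), the oxidase of the same demethylation as NSDHL, measured 199.6, 353, 326 and 350.4 CPM. It was 1.77-fold (1.64 to 1.91) higher on day 2 than on day 0, and day 4 was within counting error of day 2. TM7SF2 (gene ID 7108), a sterol reductase, measured 30.8, 30.6, 52.6 and 55.8 CPM. Here the step fell later: day 2 was within counting error of day 0, and day 3 was 1.72-fold (1.41 to 2.11) higher than day 2. NSDHL and MSMO1, neighbours in 1 reaction sequence, thus had different time courses, MSMO1 at its day 2 level on day 4 and NSDHL higher on each day. The other 4, CYP51A1, HSD17B7, EBP and DHCR7, were 1.32-fold to 1.46-fold higher on day 2 than on day 0, and 1.12-fold to 1.4-fold higher on day 4 than on day 0, where the interval of HSD17B7 held 1.

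**Figure D2:**
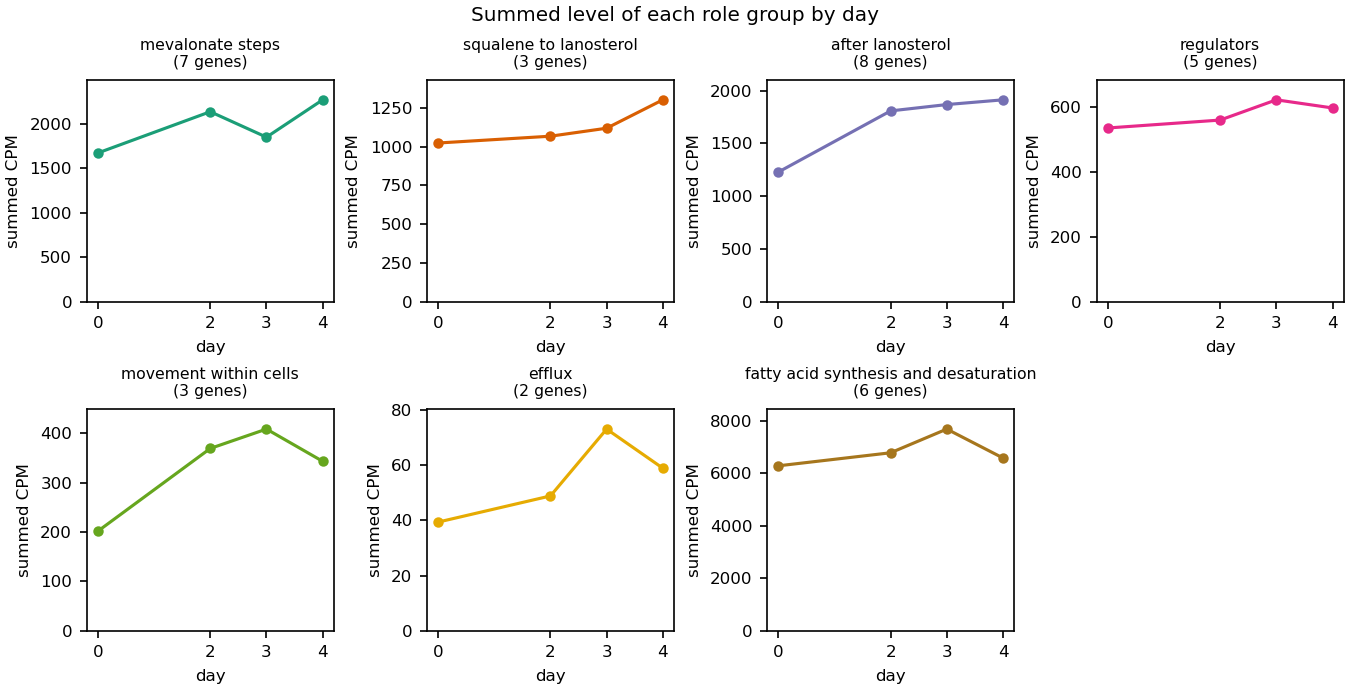
Summed CPM (vertical axis, from 0) of the members in each role group against day (horizontal axis), 1 library per day, with lines joining the days. The 8 genes after lanosterol stepped up between days 0 and 2 to 1807 CPM and then stayed near that level, while the mevalonate sum dipped to 1851 CPM on day 3.

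The 5 regulators did not move as a block, and their sum was 536, 560, 623 and 597 CPM in day order. SREBF2 (gene ID 6721), the SREBP that acts mostly on cholesterol genes, measured 266, 293, 321 and 257 CPM on days 0, 2, 3 and 4. It was highest on day 3, 1.25-fold (1.16 to 1.34) lower on day 4 than on day 3, and day 4 was within counting error of day 0. SREBF1 (gene ID 6720), the SREBP that acts mostly on fatty acid genes, measured 53.5, 40.6, 61.8 and 62.2 CPM. It was 1.32-fold (1.1 to 1.59) lower on day 2 than on day 0 and 1.52-fold (1.27 to 1.82) higher on day 3 than on day 2. SREBF1 overlaps RAI1 in the RefSeq table, and RAI1 was listed at 0.582, 40.4, 61.5 and 65.8 CPM in day order.

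SCAP (gene ID 22937), the sterol-sensing escort of SREBP, measured 87.1, 42.8, 61.1 and 58 CPM and was highest on day 0. On day 2 it was 2.04-fold (1.73 to 2.4) lower than on day 0, just past the 2-fold rule at -1.01 on the log2(CPM + 1) scale, and on day 4 it was 1.5-fold (1.3 to 1.74) lower than on day 0. The INSIG genes, which retain SCAP, differed from it in direction. INSIG1 (gene ID 3638), itself an SREBP target in sterol feedback, measured 123, 173, 170.5 and 209 CPM and was 1.7-fold (1.54 to 1.88) higher on day 4 than on day 0. INSIG2 (gene ID 51141) measured 5.43, 11, 8.5 and 11.3 CPM and was 2.08-fold (1.31 to 3.37) higher on day 4 than on day 0, a wide interval from 28 to 62 counts.

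The 3 genes that move cholesterol within cells had the largest median difference between day 2 and day 0 of the 7 role groups, 1.01 on the log2(CPM + 1) scale, with sums of 202, 369, 408 and 343 CPM in day order. NPC2 (gene ID 10577), which lifts free cholesterol out of the lysosome's lumen, measured 62.3, 126, 164 and 156 CPM on days 0, 2, 3 and 4. It was 2.03-fold (1.77 to 2.33) higher on day 2 than on day 0, just past the 2-fold rule at 1.01 on the log2(CPM + 1) scale, and 2.5-fold (2.2 to 2.85) higher on day 4. Days 3 and 4 did not differ beyond counting error. NPC1 (gene ID 4864), the membrane protein that takes the cholesterol over from NPC2, measured 73.1, 103, 127 and 105 CPM. It shared the maximum on day 3 but with a smaller difference, 1.44-fold (1.26 to 1.65) between day 4 and day 0. STARD4 (gene ID 134429), a soluble carrier of sterol between membranes, measured 66.3, 139.7, 118 and 82 CPM. It was 2.11-fold (1.85 to 2.4) higher on day 2 than on day 0 and then 1.7-fold (1.51 to 1.92) lower on day 4 than on day 2. Its antisense neighbour STARD4-AS1 was listed at 104.5, 60.2, 65.5 and 46.7 CPM, and since use of strand in counting is not given in the sources used here, reads of the pair cannot be told apart.

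Of the exporters, ABCA1 (gene ID 19), which passes cholesterol to apolipoprotein acceptors, measured 36.1, 48.5, 69.6 and 56.2 CPM. Like NPC1 and NPC2 it was highest on day 3, 1.44-fold (1.22 to 1.7) higher than on day 2. ABCG1 (gene ID 9619), which passes cholesterol to lipoprotein particles, measured 3.3, 0.392, 3.48 and 2.73 CPM, from 17, 2, 18 and 15 counts. It was 8.4-fold (1.99 to 75) lower on day 2 than on day 0, and day 4 was within counting error of day 0. The 2 counts of day 2 set the width of that interval, and ABCG1 misses the size rule with a pseudocount of 5, a minimum of 5 CPM or FPKM in place of CPM.

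The 6 fatty acid genes had the largest summed level and no shared direction, at 6281, 6778, 7680 and 6579 CPM in day order. ACACA (gene ID 31), an acetyl-CoA carboxylase, which makes malonyl-CoA, measured 366, 266, 239.8 and 177 CPM on days 0, 2, 3 and 4. It was the only member of the 34 that was lower at each step beyond counting error, and on day 4 it was 2.07-fold (1.91 to 2.24) lower than on day 0. FADS1 (gene ID 3992), a desaturase of polyunsaturated fatty acids, measured 291, 614, 568 and 469 CPM. It was 2.11-fold (1.98 to 2.24) higher on day 2 than on day 0 and 1.31-fold (1.24 to 1.38) lower on day 4 than on day 2.

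FADS2 (gene ID 9415), another such desaturase, beside FADS1 in the genome, measured 816, 962, 1279 and 1301 CPM, so it went on where FADS1 turned: 1.35-fold (1.3 to 1.4) higher on day 4 than on day 2. FADS1 and FADS2 overlap in the RefSeq table, and with use of strand in counting not given, reads from the overlap cannot be told apart. SCD (gene ID 6319), which makes monounsaturated fatty acids, measured 2699, 2566, 3113 and 2518 CPM. It was highest on day 3 and 1.24-fold (1.21 to 1.26) lower on day 4 than on day 3. ACLY, which supplies cytosolic acetyl-CoA, and FASN, fatty acid synthase, spanned 889 to 1065 CPM and 1184 to 1426 CPM. On day 4 ACACA stood apart from its neighbours in the route, with 2.07-fold (1.91 to 2.24) lower than on day 0 against a FASN ratio of 0.971 (0.937 to 1.0) and an ACLY ratio of 1.05 (1.0 to 1.09).

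**Figure D3:**
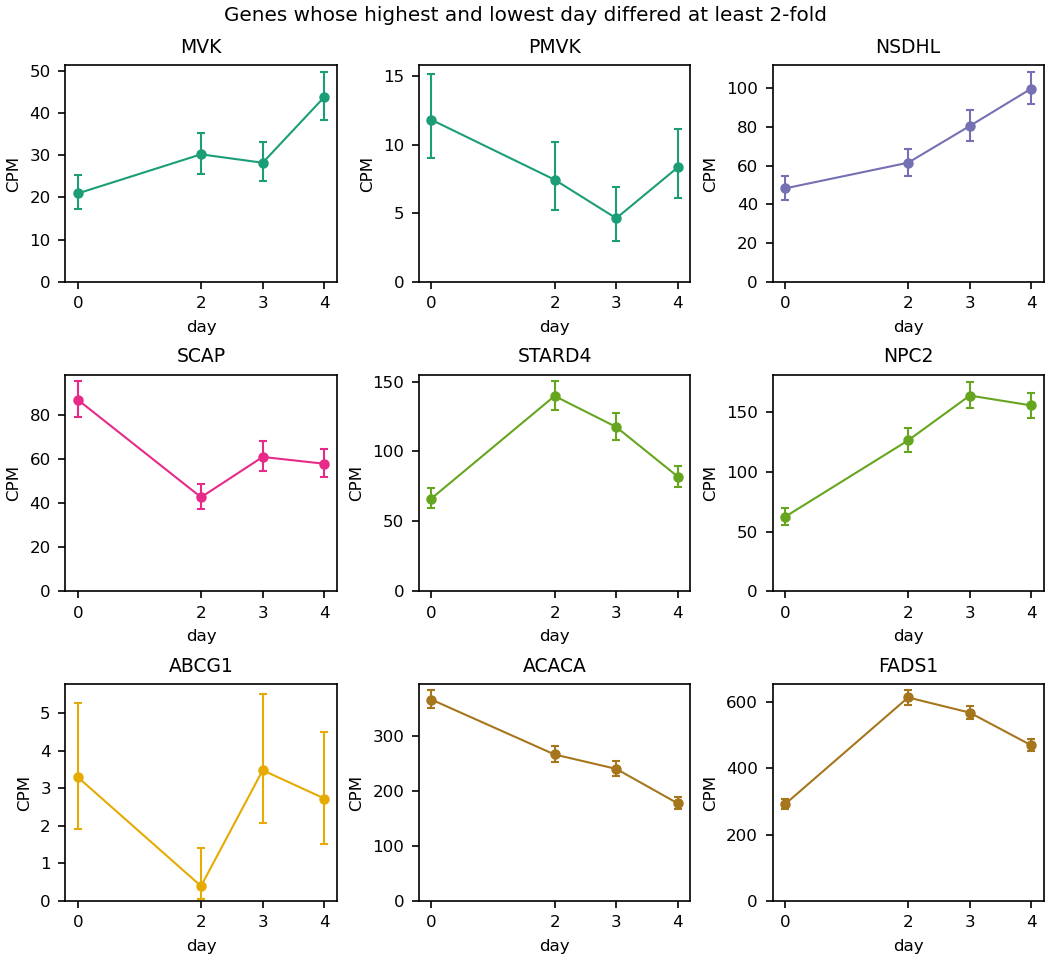
CPM (vertical axes, from 0) against day for the 9 members whose highest and lowest days differed at least 2-fold on the log2(CPM + 1) scale, 1 library per day, with exact 95% Poisson intervals for counting error. MVK and NSDHL ended highest, SCAP, PMVK and ACACA started highest, STARD4 and FADS1 were highest on day 2, NPC2 on day 3, and ABCG1 had 0.392 CPM on day 2.

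Between day 2 and day 0, the activin A and BMP4 step, 3 of 34 members (FADS1, NPC2 and STARD4) were at least 2-fold higher, against 12.9% of the 15379 genes that reached 1 CPM on day 2 or day 0. In the same comparison 2 members (SCAP and ABCG1) were at least 2-fold lower, against 8.81% of genes. Per deposited FPKM, 1 of those 3 (FADS1) and 1 of those 2 (SCAP) passed the rule, and the others fell short of it. At 1.5-fold, 7 members were higher, against 22.0% of genes, and 3 were lower, against 19.1%. As shares of 34 the counts of higher genes were 8.82 and 20.6%, close to or below those of all genes. The members' median difference was 0.37 on the log2(CPM + 1) scale, against a median near 0 over all genes, so their differences were modest in size and mostly in 1 direction. By counting error alone, 25 members were higher, against 28.9% of genes, 6 were lower, against 27.4%, and 3 (FDFT1, SQLE and TM7SF2) had intervals that held 1. Abundant genes have narrower intervals, and of the 2372 genes averaging 100 CPM or more, as 23 of the members have, 44.1% were higher and 35.7% lower by this measure. For the 18 enzymes the numbers were 14 higher, 1 lower (PMVK) and 3 within counting error, with a median difference of 0.40.

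Day 3 against day 2 covers the first day with VEGF and bFGF. ABCG1 alone was at least 2-fold higher, against 5.82% of 15286 genes, and no member was 2-fold lower, against 3.51%. The members' median difference was 0.06, against 0.00 over all genes. The 18 enzymes had a median near 0, with 4 higher and 5 lower beyond counting error, against 19% and 18.4% of genes, and 9 within it. Day 4 against day 3 had no member past 2-fold in either direction, against 2.96% of 15367 genes higher and 4.25% lower. There the enzymes had a median of 0.17, with 11 higher, against 19.8% of all genes and 32.0% of genes averaging 100 CPM or more, 1 lower (DHCR7), against 21.7 and 40.2%, and 6 within counting error. Conversely, all 3 movement genes and both exporters had lower values on day 4, from 1.05-fold to 1.43-fold, with the intervals of NPC2 and ABCG1 holding 1. All 7 mevalonate genes were higher on day 4 than on day 3, with every interval above 1.

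Day 4 against day 2 spans the whole VEGF and bFGF step. It had 1 member at least 2-fold higher (ABCG1), against 8.18% of 15406 genes, and none lower, against 7.6%. At 1.5-fold, 4 members (ABCG1, NSDHL, SREBF1 and TM7SF2) were higher, against 16.4% of genes, and 1 (STARD4) was lower, against 16.7%. The members' median difference was 0.09, against 0.02 over all genes.

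Over the full course, day 4 against day 0, 3 members (MVK, NPC2 and NSDHL) were at least 2-fold higher, against 16.1% of 15652 genes, and 1 (ACACA) was 2-fold lower, against 11.9%. With a pseudocount of 5, NPC2 alone of those 3 stayed 2-fold higher. On the log2(CPM + 1) scale MVK and NSDHL lay just past the rule, each at 1.03, and so did ACACA, at -1.04. With the deposited FPKM in place of CPM in that rule, MVK (10.3 FPKM on day 0 and 21.1 FPKM on day 4) fell short of it. At 1.5-fold, 14 of 34 members (41.2%) were higher, against 25.6% of genes, and 1 (2.94%) was lower, against 22.1%. SCAP lay at that threshold, at -0.58 on the log2(CPM + 1) scale, and with a pseudocount of 0.1, median-of-ratios size factors or a common total 2 members were lower. The 14 were 4 mevalonate genes (MVK, MVD, IDI1 and FDPS), 4 after lanosterol (NSDHL, SC5D, MSMO1 and TM7SF2), both INSIG genes, NPC2, ABCA1, FADS1 and FADS2. The members' median difference was 0.50, against 0.03 over all genes. A difference above 0 was found for 27 of the 34, against 8051 of the 15652 genes. Of the 18 enzymes, 16 were higher beyond counting error, against 32.7% of all genes and 39.2% of genes averaging 100 CPM or more, and none lower, against 29.4 and 42.9%. Their median difference was 0.54 and their ratios were 0.707 to 2.09. PMVK and HSD17B7 were the 2 whose intervals held 1. The comparisons share libraries, so these counts are not independent of each other.

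**Figure D4:**
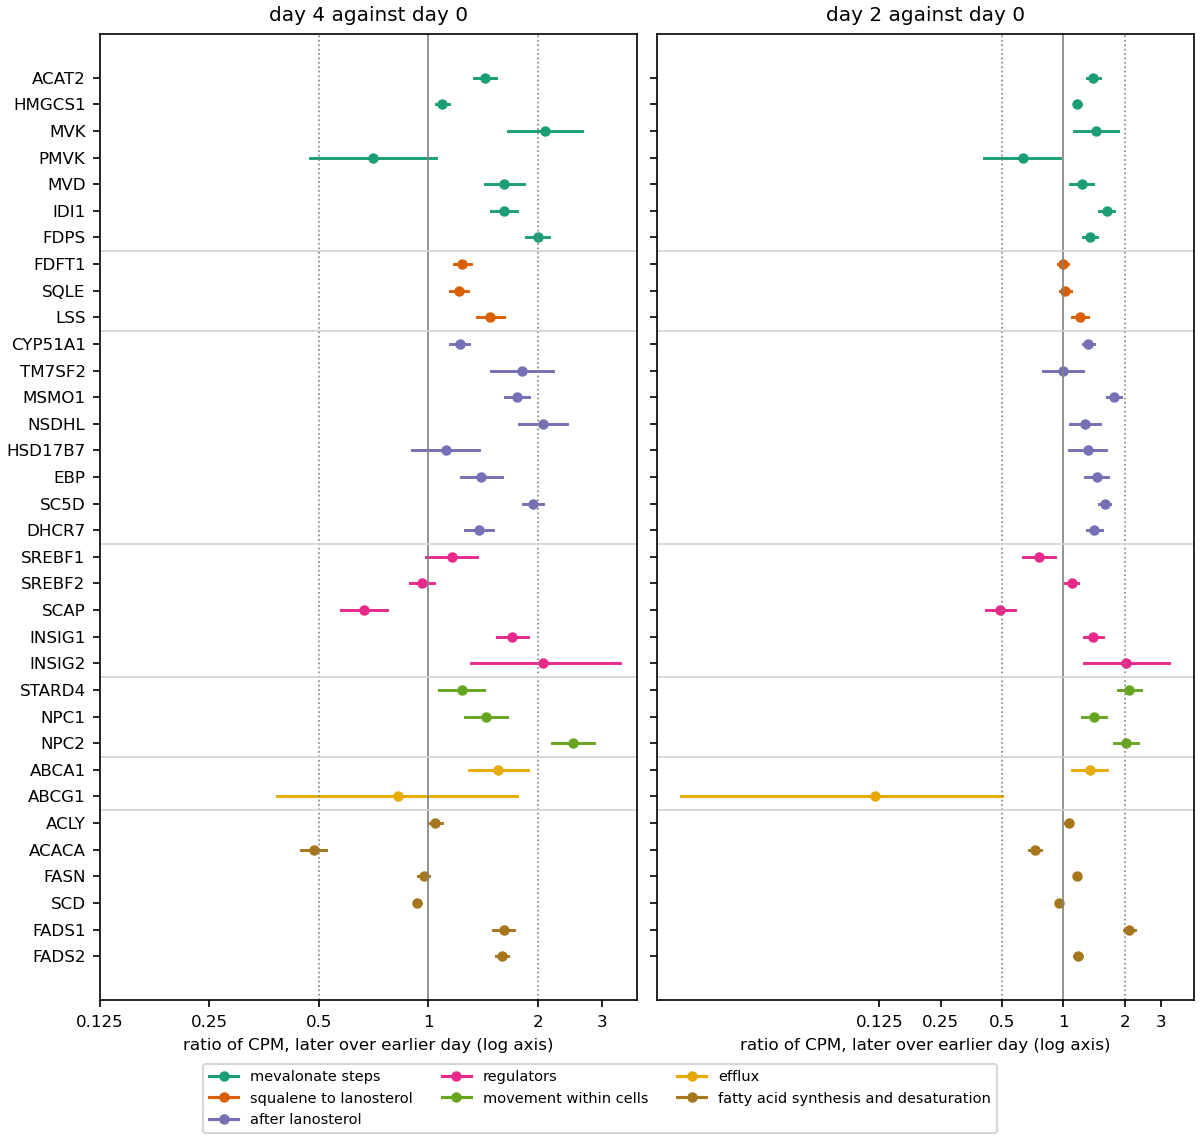
Ratio of CPM, later over earlier day, on a log axis for each of the 34 members, with exact 95% intervals for counting error only; the left panel is day 4 against day 0 and the right panel day 2 against day 0. The dotted lines mark 2-fold, and most of the 18 enzymes (top 3 blocks) lie between 1 and 2 in both panels, with PMVK left of 1.

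Across the 4 days the members' median span was slightly below that of all genes. Counting error widens the span of genes with few reads, and spans of genes at the members' level were not computed. The median difference between a member's highest and lowest day was 0.73 on the log2(CPM + 1) scale, against 0.84 over 16085 genes with at least 1 CPM on some day. Of the 34, 22 reached 1.5-fold between their extreme days, while 69.1% of genes did, and 9 reached 2-fold, while 40.6% of genes did. Among the 22, day 0 was the lowest day for 16, and the highest day was day 4 for 10, day 3 for 5, day 2 for 4 and day 0 for 3. The shares of all genes with each course were not computed, so these counts do not set the members apart. The most frequent course, lowest on day 0 and highest on day 4, was that of 8 genes: MVK, MVD, FDPS, NSDHL, SC5D, INSIG1, INSIG2 and FADS2. DHCR7, NPC1, NPC2 and ABCA1 had their highest level on day 3 and lowest on day 0, and IDI1, MSMO1, STARD4 and FADS1 were highest on day 2 and lowest on day 0. For SC5D, INSIG2, FADS2, DHCR7, NPC2, IDI1 and MSMO1 the highest day was within counting error of another day. By FPKM, IDI1 and MSMO1 were highest on day 4.

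Levels of different genes can be compared per transcript length, as the deposited FPKM (fragments per kilobase of transcript, scaled to library size). SCD had the highest FPKM of the 34 on every day, 457 to 562, and FADS2 followed on every day with 264 to 412. ABCG1 was lowest on every day at 0.13 to 1.14 FPKM, below INSIG2 at 2.14 to 4.35. The members were abundant as a set: their median of mean FPKM was 66.3, against 7.15 over genes, and 23 of 34 lay in the top 10% of genes, above 43.6 FPKM. Most neighbours in the order by mean FPKM lie within each other's range over days, for example SC5D at 43.2 to 82.0 and SREBF2 at 59.0 to 73.4 FPKM. By FPKM among the 34, FDPS ranked 3 on day 4, against 7 on day 0, and ACACA ranked 28 on day 4, against 22 on day 0.

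Paired genes kept their order per length on every day. Their ratios have no intervals for counting error, and those over INSIG2 rest on its 28 to 62 counts. INSIG1 exceeded INSIG2 in FPKM 20.2-fold, 13.6-fold, 17.5-fold and 16.2-fold on days 0, 2, 3 and 4. SREBF2 exceeded SREBF1 5.67-fold, 8.22-fold, 6.0-fold and 4.75-fold, widest on day 2 when SREBF1 was lowest. FADS2 exceeded FADS1 3.96-fold, 2.21-fold, 3.18-fold and 3.91-fold, narrowest on day 2. NPC2 exceeded NPC1 4.61-fold on day 0, 6.64-fold on day 2, 7.0-fold on day 3 and 7.99-fold on day 4, wider on each day than on the one before.

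**Figure D5:**
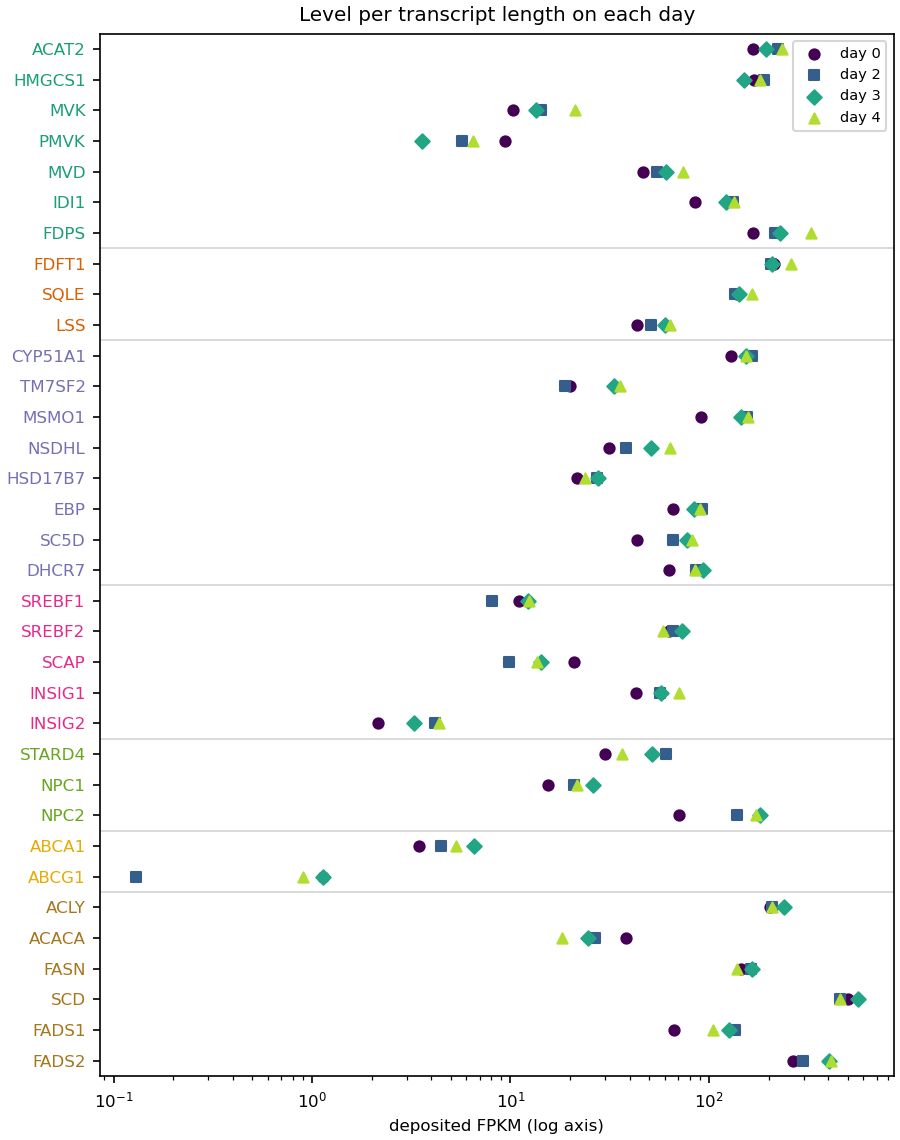
Deposited FPKM (log axis) of the 34 members, ordered and ruled off by role, with 1 symbol per day for the 1 library of that day. SCD at 457 to 562 FPKM and FADS2 at 264 to 412 FPKM lie farthest right, ABCG1 at 0.13 FPKM on day 2 lies farthest left, and for most enzymes the day 0 symbol is the leftmost.

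The deposited transcript length can differ between libraries when the estimated mix of isoforms differs. It was the same on all 4 days for 19 of the 34 members, against 61.8% of genes listed on all days. For the other 15 the largest spread was 2.44% (ABCG1), followed by INSIG1 with 2.16% and SREBF1 with 1.58%. No member passed 5%, whereas 10.9% of 15161 genes listed on all days did. Counts of 9 members (FDPS, CYP51A1, MSMO1, HSD17B7, SC5D, STARD4, NPC2, ACACA and FADS1) were fractional on at least 1 day, as arises when reads are shared with other sequences, and their levels are less certain than the intervals say. Over all genes, 69.4 to 70.1% of the values above 0 in a library were whole. Some members overlap other genes, and beside MVK the neighbour MMAB measured 28.3, 33.9, 30.3 and 42.9 CPM, beside FDPS the antisense RUSC1-AS1 measured 32.8, 48.5, 49.7 and 73.6 CPM, and beside ACAT2 the neighbour TCP1 measured 372, 362, 306 and 426 CPM in day order. Their part in the members' values was not tested.

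A wider list of 53 genes of the same pathways, none of them a member, had 51 that reached 1 CPM in 1 or both libraries of each comparison. On day 4 against day 0, 6 were at least 2-fold higher and 1 lower, which is 11.8 and 1.96%, against 16.1 and 11.9% of all genes. At 1.5-fold 8 (15.7%) were higher and 10 (19.6%) lower, against 25.6 and 22.1% of all genes. The members' 1.5-fold count of 14 higher and 1 lower was thus not matched by the wider list, a difference in counts that was not tested. On day 2 against day 0 the wider list had 6 higher (11.8%) and 3 lower (5.88%) at 2-fold, against 12.9 and 8.81% of all genes. At 1.5-fold it had 12 higher (23.5%) and 7 lower (13.7%), against 22.0 and 19.1%.

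The same 6 wider genes were 2-fold higher on day 2 and on day 4 against day 0. They include 3 of the 11 fatty acid companions: LPIN1, a phosphatidate phosphatase of lipid synthesis, at 23.7, 70.6, 131 and 111 CPM on days 0, 2, 3 and 4, ACSS2, which makes acetyl-CoA from acetate, at 52, 158, 159 and 158 CPM, and ELOVL1, an elongase of very long fatty acids, at 13.4, 39.4, 46.4 and 47.6 CPM. SOAT1, which esterifies cholesterol for storage, measured 9.31, 35.7, 36.7 and 42.7 CPM and was 4.59-fold (3.35 to 6.4) higher on day 4 than on day 0. CYP27A1, which makes an oxysterol from cholesterol, measured 1.16, 21.6, 36.3 and 20.5 CPM, 17.7-fold (7.86 to 49.1) higher on day 4 than on day 0.

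Other wider genes went the other way or turned. GRAMD1B, a carrier of cholesterol from the plasma membrane, measured 9.5, 16.9, 12.6 and 3.45 CPM, 3.64-fold (2.15 to 6.42) lower on day 4 than on day 3. MYLIP, a ubiquitin ligase for lipoprotein receptors, measured 30.1, 10.4, 32.9 and 48.5 CPM, with its lowest value on day 2, and was 4.67-fold (3.47 to 6.39) higher on day 4 than on day 2. VLDLR, a lipoprotein receptor, measured 29.1, 46.5, 23.6 and 14.2 CPM, 3.28-fold (2.53 to 4.29) lower on day 4 than on day 2. The sterol-sensing nuclear receptors NR1H2 and NR1H3, whose targets include both exporters, spanned 21.0 to 24.4 and 8.63 to 9.5 CPM over the 4 days.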

How the data were processed

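RNA was extracted with Trizol and made into libraries with an Illumina TruSeq RNA kit, per the labels' protocols. For each gene, identified by its Entrez number, the authors deposited an expected count, FPKM and the length of its transcripts, per the file headers. The submitters' processing notes name BWA, Bowtie, RSEM and hg19, without versions or roles, while the design text also names TopHat with Cufflinks. Expected counts were rounded and scaled with TMM factors (1.02, 0.981, 0.995 and 1.00 for days 0, 2, 3 and 4) from edgeR 4.0.16 in R 4.3.3. Genes missing from a file got 0. Among genes reaching 1 CPM on either day, a gene was called higher or lower where log2(CPM + 1) differed 2-fold, or 1.5-fold in 3 comparisons. Folds are plain CPM ratios with exact 95% conditional binomial intervals, and CPM have exact Poisson intervals. The rule was checked on simulated data. Gene symbols were looked up in RefSeq's GRCh38.p14 table, which matched 19273 of 19390 IDs. Values on every day were given for the regulators and up to 4 genes per role group with the largest difference between days, and for up to 3 genes per group of the wider list. The members and lists were chosen with earlier results of these data known. Other steps ran in Python 3.11.15 (scipy 1.17.1, pandas 2.3.3, numpy 2.4.6, matplotlib 3.10.9). As alternatives, the pseudocount was set to 0.1 or 5, the minimum to 0 or 5 CPM, the scaling to DESeq2 1.42.0 size factors or to a common total, and CPM was replaced by the deposited FPKM.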

Additional observations from a re-analysis of the deposited data

How the results depend on the processing

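No difference between days has a replicate check, and 1 read is worth 0.182 to 0.196 CPM, so genes such as ABCG1, PMVK and INSIG2 are read from few counts. No member called at 2-fold changed direction under the other scalings or the deposited FPKM. Smaller differences were not all stable in direction. SQLE measured 413 CPM on day 2 against 405 CPM on day 0, but 135 against 138 FPKM. Of the recomputed counts and medians, 135 stayed within 1.5 times or 0.1 of the values given, while 17 did not. The 1.5-fold counts under each alternative, and the shares of genes averaging 100 CPM or more, were added after the data were seen. With a pseudocount of 5, members 2-fold lower on day 2 against day 0 numbered 0, those higher on day 3 against day 2 and on day 4 against day 2 numbered 0 each, those higher on day 4 against day 0 numbered 1, and those 1.5-fold higher on day 4 against day 2 numbered 2. With a minimum of 5 CPM, 1 member was 2-fold lower on day 2 against day 0, and 0 were higher on day 3 against day 2 or on day 4 against day 2. With the deposited FPKM in place of CPM, 1 member was higher and 1 lower on day 2 against day 0, and 0 were higher on day 3 against day 2 or on day 4 against day 2. With a pseudocount of 0.1, and with median-of-ratios size factors, 2 members were 1.5-fold lower on day 4 against day 2 and 2 on day 4 against day 0, and with a common total 2 were 1.5-fold lower on day 4 against day 0. The calls on day 3 and day 4 against day 2 that went to 0 were those of ABCG1, with 2 counts on day 2. The causes of the other shifts were not tested. No paired analysis was possible because each day is 1 library.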
